A study of Mus musculus with 23 samples.

Results

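The receptors for glutamate, GABA and glycine were examined as 1 group of genes across mouse medulloblastoma models and the normal cerebellum. Members were chosen by symbol, with no threshold on their values: 38 receptor subunit genes were listed, of which 36 had a probe set that the array annotation assigned to that gene alone, among 18194 genes measured. *Grin1* and *Gabbr2* were not analysed here, because no probe set was annotated to either alone. The 36 were 4 AMPA, 5 kainate, 5 NMDA and 1 delta subunit, 6 metabotropic glutamate receptors, 10 GABA-A subunits, 1 GABA-B subunit and 4 glycine receptor subunits. Expression had been profiled on 23 Affymetrix arrays, 1 per sample. There were 3 cerebellar tumours in which *Ptch1* had been disrupted with CRISPR/Cas9, 2 after electroporation of the embryonic cerebellum in utero (EP) and 1 after transfection of the newborn cerebellum (TF), which the study's text describes as *Trp53*-/-. They were set beside 4 tumours of *Ptch1*+/- mice, 5 MERP tumours (*Atoh1*-CreERT2;*Ptch1* fl/fl, in which *Ptch1* is lost in Math1-expressing cells after birth) and 4 GTML tumours (Glt1-TRE;MycN;Luciferase, in which *Mycn* is overexpressed under an inducible promoter). Normal tissue was represented by 3 preparations of granule neuron precursors (GNPs), taken from pups of postnatal day 4 to 7, and by 4 adult cerebella. CD1 is the labelled strain of all samples, although the methods name C57BL/6N for the mice that were transfected, and no age is given for the tumours or the adult mice. The 3 CRISPR-Ptch1 tumours therefore differ in route, age at induction and *Trp53* status, and they are given separately wherever single values are shown.

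Fast excitation in the cerebellum runs through AMPA, kainate and NMDA receptors, which are glutamate-gated channels assembled from subunits, and delta receptors organise synapses rather than carry the main current. Metabotropic glutamate receptors act through G proteins. GABA-A and glycine receptors are chloride channels that inhibit mature neurons, and GABA-B receptors are the G protein-coupled counterpart. As granule neurons leave the cell cycle and mature they switch on a characteristic set of subunits, among them *Gabra6*, *Gabrd* and *Grin2c*.

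All values are log2 intensities after robust multi-array averaging (RMA), so that a difference of 1 is a doubling. Each gene was represented by its brightest probe set, by the mean of all 23 arrays, and levels are compared between groups for 1 gene, not between genes. A group mean at or below 4.61, the highest lower quartile of any array, is called near background, and a difference that involves such a mean is a lower limit. Differences were tested with limma in 1 fit of all 23 arrays with the EP and TF tumours pooled, and a gene was called at an adjusted p under 0.05 over all 18194 genes. Nothing says that same-group samples came from separate litters, so the p-values measure the spread between these samples. The 5 comparisons with adult cerebellum share its 4 arrays, and the 4 with GNPs share those 3 arrays.

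Arrays differed in ways that run with the groups. The gap between the 3' and 5' probe sets of the control transcripts, a sign of RNA integrity or of labelling, was 0.19 to 0.23 in CRISPR-Ptch1, 0.99 to 1.53 in *Ptch1*+/-, 0.40 to 1.71 in MERP and 1.10 to 1.28 in GTML tumours, 0.31 to 0.53 in GNPs and 0.47 to 0.54 in adult cerebella. The median of all named genes averaged 7.04 in *Ptch1*+/- and 7.15 in GTML tumours, and 7.55 in EP tumours, 7.46 in the TF tumour, 7.32 in MERP tumours, 7.58 in GNPs and 7.35 in adult cerebella. Centring arrays on it moved the median difference of all genes by between -0.48 (CRISPR-Ptch1 against *Ptch1*+/-) and 0.54 (*Ptch1*+/- against GNPs). Markers of granule neuron precursors (12 genes) averaged 11.3 in EP and TF tumours, 11.5 in *Ptch1*+/-, 11.4 in MERP and 8.11 in GTML tumours, 11.4 in GNPs and 7.82 in adult cerebella. Photoreceptor markers (9 genes) averaged 7.67 in GTML tumours, against 4.80 to 5.22 in the other groups, with *Rcvrn*, *Gnat1* and *Cnga1* near background in GTML tumours. The part of these differences in the results below was not tested.

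Most receptor subunits were lower in tumours and in GNPs than in adult cerebellum. In CRISPR-Ptch1 tumours 23 of 36 members passed the limma test, 23 lower and 0 higher, where 47.5% of all genes passed, 21.1% lower and 26.4% higher. In *Ptch1*+/- tumours 25 passed, 22 lower and 3 higher, beside 53.2% of all genes (30.8% lower and 22.4% higher). MERP tumours had 27 lower and 0 higher members, against 55.7% of all genes, 24.9% lower and 30.8% higher. In GTML tumours 29 passed, 26 lower and 3 higher, beside 55.3% of all genes, 27.9% lower and 27.3% higher. GNPs had 22 lower and 0 higher members, beside 50.1% of all genes, 21.0% lower and 29.1% higher. At an unadjusted p under 0.05, 0 members were higher in CRISPR-Ptch1 tumours and in GNPs, and 2 in MERP tumours. The median difference of the 36 members from adult cerebellum was -1.28 in CRISPR-Ptch1, -1.10 in *Ptch1*+/-, -1.99 in MERP and -2.53 in GTML tumours and -1.10 in GNPs, where the median of all genes was 0.02, -0.03, 0.08, 0.04 and 0.03. These are extracts of whole tissue or mixed cells, in which fewer cells of a type and less RNA per cell cannot be told apart.

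**Figure D1:**
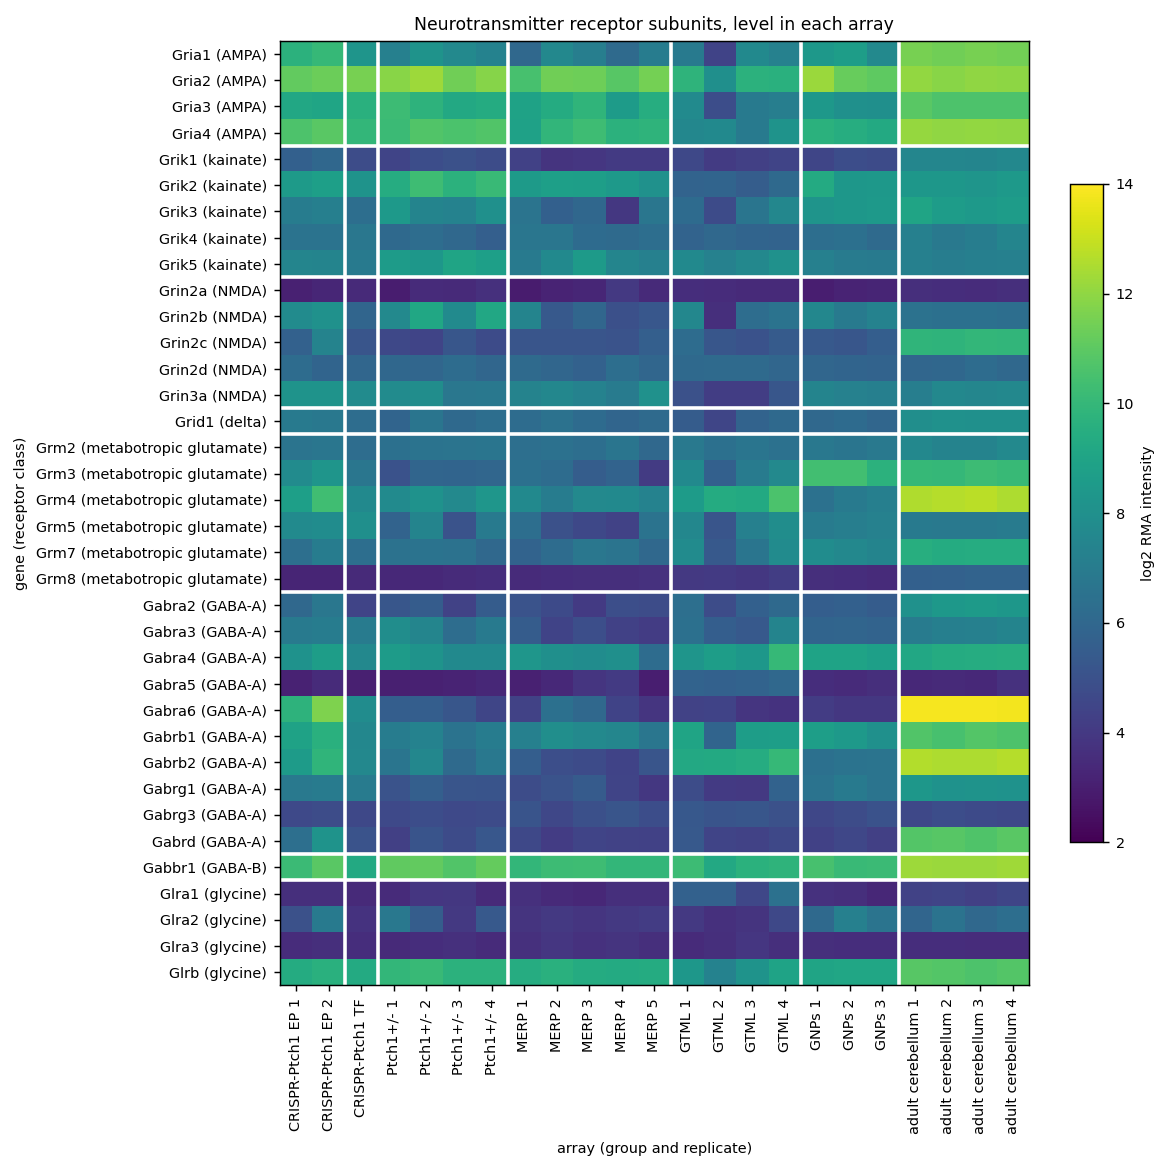
Level of each of the 36 receptor subunit genes (rows, by receptor class) in each of the 23 arrays (columns, by group), as log2 RMA intensity on the colour scale from 2 to 14. The adult cerebella on the right hold the highest group mean for 24 genes, and the EP tumours on the left are nearest to them for Gabra6, Gabrd and Gria1.

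Of the 36 members, 19 were lower than adult cerebellum in all 5 comparisons: *Gria1*, *Gria3*, *Gria4*, *Grik1*, *Grik4*, *Grin2c*, *Grid1*, *Grm2*, *Grm4*, *Grm7*, *Grm8*, *Gabra2*, *Gabra6*, *Gabrb1*, *Gabrb2*, *Gabrg1*, *Gabrd*, *Gabbr1* and *Glrb*. Of all genes 13.3% were lower in all 5, which share the adult arrays. Another 6 members were lower in none (*Grik5*, *Grin2b*, *Grin2d*, *Gabra5*, *Gabrg3* and *Glra3*), as were 59.0% of all genes. The highest mean of the 6 groups lay in adult cerebellum for 24 members, in GTML tumours for 4, in *Ptch1*+/- tumours for 3, in CRISPR-Ptch1 tumours and GNPs for 2 each and in MERP tumours for 1. The lowest mean lay in MERP tumours for 13 members and in GTML tumours for 11. Averaged over the 36 members, the level was 7.10 and 7.55 in the EP tumours, 6.56 in the TF tumour, 6.46 to 6.89 in *Ptch1*+/-, 5.99 to 6.24 in MERP and 5.66 to 6.73 in GTML tumours, 6.63 to 6.76 in GNPs and 8.46 to 8.52 in adult cerebella. No tumour or GNP array reached the adult range of that average.

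On average, markers of mature cerebellar cells moved in the same direction. The 13 measured of 14 markers of mature granule neurons averaged 10.22 and 10.97 in the EP tumours, 9.37 in the TF tumour, 9.20 to 9.51 in *Ptch1*+/-, 8.86 to 9.39 in MERP and 7.80 to 8.46 in GTML tumours, 9.63 to 9.71 in GNPs and 11.84 to 11.96 in adult cerebella. In CRISPR-Ptch1 tumours 10 of the 13 were lower and 1 higher than in adult cerebellum, where 21.1% and 26.4% of all genes were. In GTML tumours 12 were lower and 0 higher, where 27.9% and 27.3% of all genes were. *Ptch1*+/- tumours had 10 lower and 2 higher, MERP tumours 11 and 1, and GNPs 9 and 1, with the shares of all genes given above. The 9 Purkinje cell markers averaged 9.53 and 10.99 in the EP tumours, 8.59 in the TF tumour, 6.14 to 6.41 in *Ptch1*+/-, 6.37 to 6.89 in MERP and 5.85 to 7.85 in GTML tumours, 7.49 to 7.59 in GNPs and 13.6 to 13.7 in adult cerebella. All 9 were lower than adult cerebellum in each of the 5 comparisons, with *Calb1* near background in *Ptch1*+/- and MERP tumours. The 9 markers of inhibitory interneurons and Golgi cells averaged 7.13 and 7.89 in the EP tumours, 6.33 in the TF tumour, 5.50 to 5.70 in *Ptch1*+/-, 5.52 to 6.22 in MERP and 5.33 to 7.31 in GTML tumours, 7.60 to 7.71 in GNPs and 10.3 in adult cerebella. Their part in the receptor differences was not tested.

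**Figure D2:**
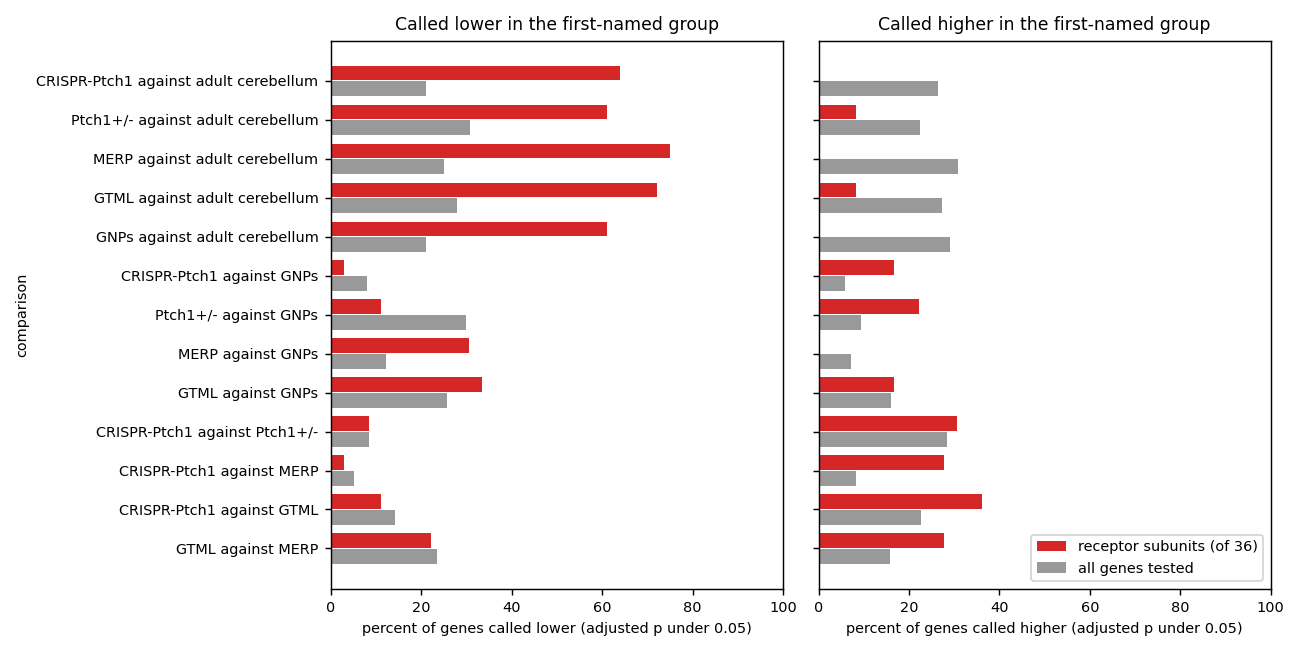
Percent of genes called lower (left) or higher (right) in the first-named group of each of the 13 comparisons, for the 36 receptor subunits (red) and for all 18194 genes (grey). Against adult cerebellum the red bars for lower calls exceed the grey bars in all 5 comparisons, and between CRISPR-Ptch1 and Ptch1+/- tumours the bars are close to each other.

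Set against GNPs, the dividing precursors of granule neurons, the 4 models had different balances of higher and lower members. CRISPR-Ptch1 tumours had 6 higher and 1 lower member, where 13.7% of all genes passed, 5.79% higher and 7.95% lower. *Ptch1*+/- tumours had 8 higher and 4 lower, where 39.3% of all genes passed, 9.40% higher and 29.9% lower. With arrays centred on the named genes these became 21 and 2. MERP tumours had 0 higher and 11 lower members by limma, where 19.2% of all genes passed, 7.12% higher and 12.1% lower, with 2 members higher at an unadjusted p under 0.05, and the centring gave 7 higher and 9 lower. GTML tumours had 6 higher and 12 lower, where 41.8% of all genes passed, 16.1% higher and 25.7% lower, or 10 and 11 after the centring. The share of members called in GTML tumours thus lay near that of all genes in the higher direction. The median difference of the members was 0.18 in CRISPR-Ptch1, 0.04 in *Ptch1*+/-, -0.16 in MERP and -0.26 in GTML tumours, where all genes had 0.0, -0.10, 0.05 and -0.01. Endothelial and pericyte markers (8 genes) averaged 7.68 in EP tumours, 8.36 in the TF tumour, 7.13 in *Ptch1*+/-, 6.83 in MERP and 8.05 in GTML tumours, 10.02 in GNPs and 8.19 in adult cerebella. Against GNPs 7 of the 8 were lower in CRISPR-Ptch1 tumours and all 8 in each other model. Microglia and macrophage markers (9 genes) averaged 10.1 in EP tumours, 9.10 in the TF tumour, 7.62 in *Ptch1*+/-, 8.11 in MERP and 8.31 in GTML tumours, 7.95 in GNPs and 7.64 in adult cerebella. In CRISPR-Ptch1 tumours 6 of the 9 were higher than in GNPs. All 9 were higher than in *Ptch1*+/- tumours, where 28.5% of all genes were. The part of either list in the receptor differences was not tested.

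Between tumour models, CRISPR-Ptch1 tumours had 11 higher and 3 lower members than *Ptch1*+/- tumours, where 36.8% of all genes passed, 28.5% higher and 8.33% lower, and centring on the named genes turned this to 8 higher and 14 lower. Against MERP tumours 10 members were higher and 1 lower, where 13.3% of all genes passed, 8.20% higher and 5.15% lower, and the centring gave 10 and 3. Against GTML tumours 13 were higher and 4 lower, where 36.8% of all genes passed, 22.7% higher and 14.1% lower, or 12 and 11 after the centring. GTML tumours had 10 higher and 8 lower members than MERP tumours, where 39.2% of all genes passed, 15.8% higher and 23.4% lower. Taken alone, the TF tumour, a single array assumed to vary like the other groups, had 3 higher and 3 lower members against *Ptch1*+/- tumours, where 22.4% of all genes passed, 18.0% higher and 4.41% lower. It had 4 higher and 0 lower members by limma against MERP tumours, where 2.69% of all genes passed, 1.87% higher and 0.819% lower. Against GNPs it had 1 higher and 3 lower, where 8.40% of all genes passed, 3.04% higher and 5.36% lower.

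The AMPA subunits, which form the fast glutamate-gated channels, had their lowest group means in GTML tumours. All 4 were lower than adult cerebellum in GTML and MERP tumours, and 3 of 4 in CRISPR-Ptch1 and *Ptch1*+/- tumours and in GNPs. *Gria1* read 9.71 and 10.03 in the EP tumours, 8.25 in the TF tumour and 7.21, 8.19, 7.63 and 7.32 in the *Ptch1*+/- tumours. MERP tumours gave *Gria1* values of 6.03, 7.62, 7.14, 6.13 and 7.02, and GTML tumours 6.88, 4.40, 7.70 and 7.26. GNPs had 8.38, 8.66 and 7.65, and adult cerebella 11.55, 11.40, 11.54 and 11.44. Every tumour and GNP array lay below the adult range, and the EP tumours lay above every *Ptch1*+/-, MERP, GTML and GNP array. Relative to adult cerebellum *Gria1* had log2 fold changes of -2.15 (SE 0.57) in CRISPR-Ptch1 tumours, -3.90 (SE 0.53) in *Ptch1*+/- tumours, -4.69 (SE 0.50) in MERP tumours, -4.92 (SE 0.53) in GTML tumours and -3.25 (SE 0.57) in GNPs, adjusted p at most 0.00345. It was also 1.75 (SE 0.57), adjusted p = 0.0199, in CRISPR-Ptch1 over *Ptch1*+/- tumours, and 2.54 (SE 0.55), adjusted p = 0.00432, over MERP tumours. GTML against MERP tumours gave -0.23 for *Gria1*, which was not called, and 0.44 by its second probe set.

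*Gria2*, the subunit that limits calcium entry through the channel, varied least outside GTML tumours by its brightest probe set. *Gria2* measured 11.12 and 11.32 in the EP tumours, 11.53 in the TF tumour and 11.85, 12.26, 11.38 and 11.80 in the *Ptch1*+/- tumours. Its values were 10.50, 11.41, 11.35, 10.87 and 11.51 in MERP and 9.79, 7.98, 9.73 and 9.63 in GTML tumours. GNPs stood at 12.18, 11.19 and 11.03, and adult cerebella at 12.04, 11.89, 11.99 and 11.94. Each GTML tumour lay below every other array, and GTML 2 was the lowest. *Gria2* changed against adult cerebellum by -0.84 (SE 0.31) in MERP tumours and -2.68 (SE 0.33) in GTML tumours, adjusted p at most 0.0266, and against GNPs by -2.18 (SE 0.35) in GTML tumours, adjusted p = 3.88e-05. The values that did not pass were -0.64 (SE 0.35, adjusted p = 0.15) in CRISPR-Ptch1 tumours, -0.14 (SE 0.33, adjusted p = 0.768) in *Ptch1*+/- tumours and -0.50 (SE 0.35, adjusted p = 0.267) in GNPs. The 2 other probe sets of *Gria2* had -0.83 and -1.64 in CRISPR-Ptch1 tumours and 0.37 and 0.27 in *Ptch1*+/- tumours against adult cerebellum. They had -0.49 and -1.54 in MERP tumours and -0.43 and -1.06 in GNPs. CRISPR-Ptch1 against *Ptch1*+/- tumours gave -1.19 and -1.92 by these probe sets, beside -0.50 by the brightest. CRISPR-Ptch1 tumours had 2.04 (SE 0.35), adjusted p = 0.000111, over GTML tumours, and GTML tumours had -1.84 (SE 0.31), adjusted p = 6.27e-05, against MERP tumours.

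*Gria3* stood at 9.21 and 9.07 in the EP tumours, 9.62 in the TF tumour and 10.21, 9.75, 9.22 and 9.38 in the *Ptch1*+/- tumours. MERP tumours gave *Gria3* values of 8.93, 9.38, 9.83, 8.60 and 9.47, and GTML tumours 7.73, 4.86, 6.92 and 7.15. GNPs had 8.40, 8.02 and 8.0, and adult cerebella 10.92, 10.63, 10.66 and 10.64. All GTML values lay below those of GNPs, while all CRISPR-Ptch1, *Ptch1*+/- and MERP values lay above them, and the adult range was the highest. *Gria3* had -1.41 (SE 0.43) in CRISPR-Ptch1 tumours, -1.07 (SE 0.40) in *Ptch1*+/- tumours, -1.47 (SE 0.38) in MERP tumours, -4.05 (SE 0.40) in GTML tumours and -2.58 (SE 0.43) in GNPs, adjusted p at most 0.0293, against adult cerebellum. Against GNPs it rose by 1.50 (SE 0.43) in *Ptch1*+/- tumours, adjusted p = 0.00846, and changed by -1.47 (SE 0.43) in GTML tumours, adjusted p = 0.00932. Without GTML 2 that GTML value was -0.87. GTML tumours had -2.58 (SE 0.38), adjusted p = 1.31e-05, against MERP tumours. *Gria4* gave 10.67 and 10.92 in the EP tumours, 9.94 in the TF tumour and 10.16, 10.72, 10.61 and 10.74 in the *Ptch1*+/- tumours. Its values were 8.87, 9.89, 10.28, 9.72 and 9.81 in MERP and 7.56, 7.68, 6.96 and 8.16 in GTML tumours. GNPs stood at 9.66, 9.49 and 9.29, and adult cerebella at 12.12, 12.03, 12.05 and 12.03. Here too GTML tumours lay below the other 5 groups and adult cerebella above them, and the CRISPR-Ptch1 and *Ptch1*+/- tumours lay above the GNPs. The differences from adult cerebellum were -1.55 (SE 0.28) in CRISPR-Ptch1 tumours, -1.50 (SE 0.26) in *Ptch1*+/- tumours, -2.34 (SE 0.25) in MERP tumours, -4.47 (SE 0.26) in GTML tumours and -2.58 (SE 0.28) in GNPs, adjusted p at most 8.75e-05. Against GNPs they were 1.03 (SE 0.30) in CRISPR-Ptch1 tumours, 1.08 (SE 0.28) in *Ptch1*+/- tumours and -1.89 (SE 0.28) in GTML tumours, adjusted p at most 0.0232. CRISPR-Ptch1 tumours exceeded GTML tumours by 2.92 (SE 0.28), adjusted p = 5.53e-08. With arrays left out singly, some calls fell short of the threshold, as *Gria1* in GTML against GNPs did without GTML 2, GNPs 1 or GNPs 2 (log2 -1.60 to -0.95, adjusted p 0.0678 to 0.0923) and *Gria1* in CRISPR-Ptch1 against *Ptch1*+/- did without EP 1 or EP 2 (log2 1.40 to 1.56, adjusted p 0.0813 to 0.107). Further, *Gria2* in MERP against adult cerebellum did without MERP 1, MERP 4, adult 1 or adult 3 (log2 -0.83 to -0.68, adjusted p 0.0525 to 0.077) and *Gria3* in *Ptch1*+/- against adult cerebellum did without *Ptch1*+/- 3, *Ptch1*+/- 4 or adult 1 (log2 -1.0 to -0.93, adjusted p 0.0683 to 0.0847). Likewise, *Gria4* in CRISPR-Ptch1 against GNPs did without EP 1, EP 2, GNPs 2 or GNPs 3 (log2 0.83 to 1.04, adjusted p 0.061 to 0.122).

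**Figure D3:**
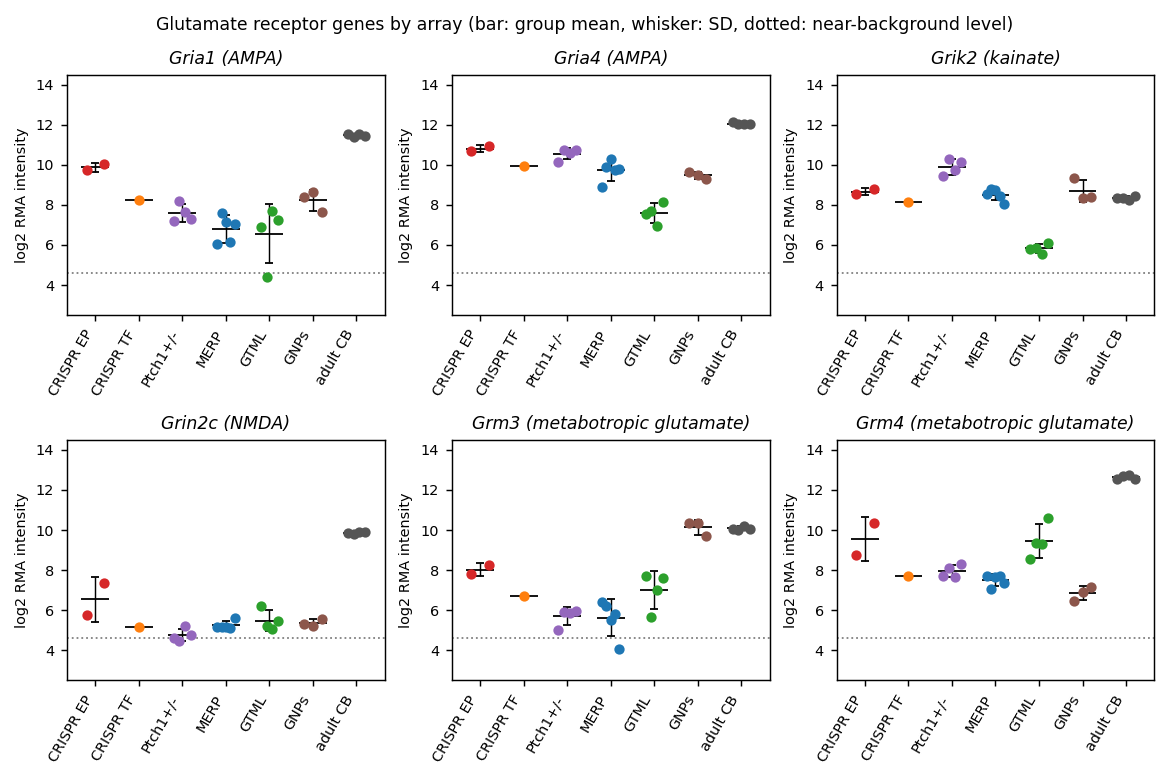
Log2 RMA intensity of 6 glutamate receptor genes in each array (points), by group from CRISPR-Ptch1 EP to adult cerebellum (adult CB), with the group mean (bar) and SD (whisker, groups with over 1 array), and the near-background level of 4.61 (dotted). Grik2 is lowest in GTML tumours (5.55 to 6.10) and highest in Ptch1+/- tumours (9.44 to 10.28), and Grm3 is high in GNPs and adult cerebella and lower in every tumour.

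Kainate receptor subunits split between models. *Grik1*, *Grik2* and *Grik3* can form channels of their own, while *Grik4* and *Grik5* bind glutamate with high affinity and need those subunits as partners. *Grik2* registered 8.53 and 8.77 in the EP tumours, 8.16 in the TF tumour and 9.44, 10.28, 9.72 and 10.12 in the *Ptch1*+/- tumours. MERP tumours gave *Grik2* values of 8.53, 8.77, 8.74, 8.45 and 8.06, and GTML tumours 5.81, 5.85, 5.55 and 6.10. GNPs had 9.32, 8.35 and 8.38, and adult cerebella 8.34, 8.35, 8.26 and 8.45. The 4 *Ptch1*+/- tumours lay above the other arrays and the 4 GTML tumours below them, without overlap. Against adult cerebellum *Grik2* rose by 1.54 (SE 0.21) in *Ptch1*+/- tumours, adjusted p = 2.38e-06, and changed by -2.52 (SE 0.21) in GTML tumours, adjusted p = 1.60e-09, and it had 0.14 (SE 0.23, adjusted p = 0.678) in CRISPR-Ptch1 tumours, 0.16 (SE 0.20, adjusted p = 0.534) in MERP tumours and 0.34 (SE 0.23, adjusted p = 0.249) in GNPs. Against GNPs it had 1.20 (SE 0.23) in *Ptch1*+/- tumours and -2.86 (SE 0.23) in GTML tumours, adjusted p at most 0.000285. CRISPR-Ptch1 tumours stood -1.40 (SE 0.23), adjusted p = 8.85e-05, relative to *Ptch1*+/- and 2.66 (SE 0.23), adjusted p = 1.45e-08, relative to GTML tumours. The difference between GTML and MERP tumours was -2.68 (SE 0.20), adjusted p = 1.06e-09.

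*Grik1* was at 5.69 and 6.0 in the EP tumours, 4.79 in the TF tumour and 4.46, 4.83, 4.98 and 4.79 in the *Ptch1*+/- tumours. Its values were 4.31, 3.78, 3.91, 4.04 and 4.02 in MERP and 4.61, 4.07, 4.25 and 4.44 in GTML tumours. GNPs stood at 4.51, 4.83 and 4.75, and adult cerebella at 7.51, 7.52, 7.47 and 7.58. Adult cerebella stood above all other arrays, the EP tumours came next, and MERP and GTML tumours, which overlapped each other, had the lowest means. MERP and GTML means were near background, so their differences are lower limits. *Grik1* differed from adult cerebellum by -2.02 (SE 0.20) in CRISPR-Ptch1 tumours, -2.76 (SE 0.19) in *Ptch1*+/- tumours, -3.50 (SE 0.18) in MERP tumours, -3.18 (SE 0.19) in GTML tumours and -2.82 (SE 0.20) in GNPs, adjusted p at most 3.69e-08. Relative to GNPs it had 0.80 (SE 0.22) in CRISPR-Ptch1 tumours and -0.68 (SE 0.19) in MERP tumours, adjusted p at most 0.0159. CRISPR-Ptch1 tumours were 0.73 (SE 0.20), adjusted p = 0.00725, above *Ptch1*+/- and 1.48 (SE 0.19), adjusted p = 8.75e-05, above MERP tumours. The second probe set of *Grik1* had the opposite sign in 4 of its called comparisons, with differences between -0.39 and 0.17.

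*Grik3* ranged between 6.31 and 7.18 in CRISPR-Ptch1, 7.32 and 8.47 in *Ptch1*+/-, 3.94 and 6.71 in MERP and 4.74 and 7.57 in GTML tumours, 8.23 and 8.50 in GNPs and 8.50 and 9.02 in adult cerebella. Against GNPs it had -2.57 (SE 0.53) in MERP tumours and -2.07 (SE 0.55) in GTML tumours, adjusted p at most 0.00459. Its other probe set had small differences of opposite sign (0.15 and 0.33). *Grik5* ranged between 6.91 and 7.45 in CRISPR-Ptch1, 6.96 and 8.54 in MERP and 7.26 and 8.08 in GTML tumours, with MERP 3 (8.54) inside the *Ptch1*+/- range. It passed the test against adult cerebellum and GNPs in *Ptch1*+/- tumours and in no other group, at 8.37 to 8.99 against 7.08 to 7.23 in adult cerebella and 6.96 to 7.24 in GNPs. Its log2 fold change was 1.50 (SE 0.24) in *Ptch1*+/- tumours, adjusted p = 1.59e-05 against adult cerebellum and 1.61 (SE 0.26) in *Ptch1*+/- tumours, adjusted p = 4.66e-05 against GNPs, and CRISPR-Ptch1 tumours had -1.41 (SE 0.26), adjusted p = 0.000257, relative to *Ptch1*+/- tumours. MERP 3 also had the widest gap between 3' and 5' control probe sets of all arrays, at 1.71. MERP 5 and MERP 1, with the smallest gaps of that group (0.40 and 0.43), read 7.24 and 6.96 for *Grik5*. The gap was 0.99 to 1.53 in *Ptch1*+/- and 1.10 to 1.28 in GTML tumours, and its part in the *Grik5* differences was not tested.

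*Grik4* read 6.55 and 6.55 in the EP tumours, 6.76 in the TF tumour and 6.10, 6.29, 6.07 and 5.64 in the *Ptch1*+/- tumours. MERP tumours gave *Grik4* values of 6.73, 6.71, 6.20, 6.17 and 6.35, and GTML tumours 5.83, 6.04, 5.86 and 5.80. GNPs had 6.33, 6.41 and 6.16, and adult cerebella 7.24, 6.86, 7.07 and 7.44. The differences were small, and only the adult cerebella, from 6.86 upwards, lay above all other arrays. They came to -0.54 (SE 0.16) in CRISPR-Ptch1 tumours, -1.13 (SE 0.15) in *Ptch1*+/- tumours, -0.72 (SE 0.14) in MERP tumours, -1.27 (SE 0.15) in GTML tumours and -0.85 (SE 0.16) in GNPs, adjusted p at most 0.00994, against adult cerebellum. CRISPR-Ptch1 over GTML tumours gave 0.73 (SE 0.16), adjusted p = 0.00132, GTML against MERP tumours -0.55 (SE 0.14), adjusted p = 0.00432, and GTML tumours against GNPs -0.42 (SE 0.16), adjusted p = 0.0466. That last value changed sign, to 0.0152 (adjusted p = 0.939), with arrays centred on the named genes. For *Grik1* and its class, leaving out 1 array took calls below the threshold, as *Grik1* in CRISPR-Ptch1 against GNPs did without EP 1, EP 2 or GNPs 1 (log2 0.55 to 0.71, adjusted p 0.0779 to 0.118) and *Grik1* in MERP against GNPs did without GNPs 2 or GNPs 3 (log2 -0.65 to -0.61, adjusted p 0.065 to 0.0809). Further, *Grik1* in CRISPR-Ptch1 against *Ptch1*+/- did without EP 2 (log2 0.48, adjusted p = 0.0807) and *Grik4* in GTML against GNPs did without any of 12 of the 23 arrays (EP 1, EP 2, GTML 1, GTML 3, GTML 4, *Ptch1*+/- 3, MERP 5, GNPs 1, GNPs 2, GNPs 3, adult 1 or adult 3) (log2 -0.49 to -0.36, adjusted p 0.051 to 0.148).

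Among NMDA subunits, which bind glutamate in slower, calcium-permeable channels, *Grin2c*, characteristic of mature granule neurons, had the most negative differences. *Grin2c* measured 5.75 and 7.35 in the EP tumours, 5.14 in the TF tumour and 4.61, 4.47, 5.20 and 4.76 in the *Ptch1*+/- tumours. Its values were 5.14, 5.17, 5.16, 5.09 and 5.63 in MERP and 6.23, 5.22, 5.04 and 5.45 in GTML tumours. GNPs stood at 5.33, 5.23 and 5.56, and adult cerebella at 9.85, 9.80, 9.93 and 9.89. All tumour and GNP values lay below the adult range, and EP 2 was the highest of them. The log2 fold changes against adult cerebellum were -3.79 (SE 0.34) in CRISPR-Ptch1 tumours, -5.11 (SE 0.32) in *Ptch1*+/- tumours, -4.63 (SE 0.30) in MERP tumours, -4.38 (SE 0.32) in GTML tumours and -4.49 (SE 0.34) in GNPs, adjusted p at most 7.52e-09. CRISPR-Ptch1 exceeded *Ptch1*+/- tumours by 1.32 (SE 0.34), adjusted p = 0.0044, and by 0.68 without EP 2.

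*Grin2b*, the subunit of young neurons, ran from 7.65 to 9.22 in *Ptch1*+/- tumours against 6.35 to 6.54 in adult cerebella, a rise of 2.02 (SE 0.65) in *Ptch1*+/- tumours, adjusted p = 0.0117. Of its 3 other probe sets 2 had small differences of opposite sign there (-0.13 and -0.02), and the remaining probe set had 1.69. Its values spread widely in MERP (4.95 to 7.40) and GTML tumours (3.64 to 7.56), and the EP tumours (7.77 and 8.05) lay above the TF tumour (5.93). *Grin3a*, which lowers the calcium permeability of the receptor, fell in GTML tumours: 4.16 to 5.19, against 7.0 to 8.06 in MERP tumours, 7.20 to 7.42 in GNPs and 7.14 to 7.60 in adult cerebella. Its difference was -2.83 (SE 0.27) in GTML tumours, adjusted p = 8.49e-09 against adult cerebellum, -2.67 (SE 0.29) in GTML tumours, adjusted p = 2.18e-07 against GNPs and -2.84 (SE 0.25) in GTML tumours, adjusted p = 1.34e-08 against MERP tumours, and CRISPR-Ptch1 exceeded GTML tumours by 3.41 (SE 0.29), adjusted p = 1.04e-08. *Grin2d* was called in no comparison by its brightest probe set, with all 23 arrays between 5.75 and 6.31. By its other probe set it passed in 6 comparisons, with -0.56 (adjusted p = 0.00335 by limma) in CRISPR-Ptch1 tumours and -0.52 (adjusted p = 0.0057) in GNPs against adult cerebellum. *Grin2a* was near background in all 7 groups, where the called difference of -0.45 (SE 0.18) in GNPs, adjusted p = 0.0444, lies between groups that are both near background. For *Grin2a*, leaving out 1 array took calls below the threshold, as *Grin2a* in GNPs against adult cerebellum did without any of 9 of the 23 arrays (EP 2, *Ptch1*+/- 3, GNPs 1, GNPs 2, GNPs 3, adult 1, adult 2, adult 3 or adult 4) (log2 -0.49 to -0.39, adjusted p 0.0503 to 0.142).

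*Grid1*, the delta subunit that links to cerebellins at the synapse, was lower than adult cerebellum throughout. *Grid1* stood at 6.90 and 6.79 in the EP tumours, 6.27 in the TF tumour and 5.89, 6.64, 6.08 and 6.31 in the *Ptch1*+/- tumours. MERP tumours gave *Grid1* values of 6.26, 6.50, 6.20, 5.90 and 6.17, and GTML tumours 5.48, 4.51, 5.82 and 6.11. GNPs had 6.05, 6.17 and 5.98, and adult cerebella 7.95, 8.06, 8.03 and 8.01. No array of another group reached the adult range of 7.95 to 8.06, and GTML 2 was the lowest array. *Grid1* differed by -1.36 (SE 0.26) in CRISPR-Ptch1 tumours, -1.78 (SE 0.24) in *Ptch1*+/- tumours, -1.81 (SE 0.23) in MERP tumours, -2.53 (SE 0.24) in GTML tumours and -1.94 (SE 0.26) in GNPs, adjusted p at most 0.00015. CRISPR-Ptch1 tumours had 1.18 (SE 0.26), adjusted p = 0.00109, over GTML tumours, and GTML had -0.73 (SE 0.23), adjusted p = 0.0138, against MERP tumours. For *Grid1*, leaving out 1 array took calls below the threshold, as *Grid1* in GTML against MERP did without GTML 2 (log2 -0.41, adjusted p = 0.072).

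The metabotropic glutamate receptors included 1 gene that GNPs and adult cerebellum shared at a high level. *Grm3* gave 7.80 and 8.24 in the EP tumours, 6.72 in the TF tumour and 5.03, 5.93, 5.88 and 5.95 in the *Ptch1*+/- tumours. Its values were 6.43, 6.22, 5.53, 5.81 and 4.09 in MERP and 7.68, 5.66, 7.0 and 7.63 in GTML tumours. GNPs stood at 10.35, 10.36 and 9.70, and adult cerebella at 10.06, 9.98, 10.22 and 10.07. *Grm3*, which lowers cyclic AMP through inhibitory G proteins, was thus lower in all 16 tumours than in all 7 normal arrays. Against GNPs it had -2.55 (SE 0.52) in CRISPR-Ptch1 tumours, -4.44 (SE 0.49) in *Ptch1*+/- tumours, -4.52 (SE 0.46) in MERP tumours and -3.14 (SE 0.49) in GTML tumours, adjusted p at most 0.00158, and against adult cerebellum -2.50 (SE 0.49) in CRISPR-Ptch1 tumours, -4.39 (SE 0.45) in *Ptch1*+/- tumours, -4.47 (SE 0.43) in MERP tumours and -3.09 (SE 0.45) in GTML tumours, adjusted p at most 0.000192. GNPs differed from adult cerebellum by 0.05 (SE 0.49, adjusted p = 0.949). CRISPR-Ptch1 exceeded *Ptch1*+/- tumours by 1.89 (SE 0.49), adjusted p = 0.00409. Astrocyte and Bergmann glia markers (11 genes), cells in which *Grm3* is also expressed, averaged 10.97 in EP tumours, 10.6 in the TF tumour, 9.35 in *Ptch1*+/-, 9.69 in MERP and 8.72 in GTML tumours, 10.7 in GNPs and 12.1 in adult cerebella, and their part was not tested.

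*Grm4*, the presynaptic receptor of parallel fibres, the axons of granule neurons, ran the other way in GNPs. *Grm4* registered 8.76 and 10.33 in the EP tumours, 7.71 in the TF tumour and 7.73, 8.12, 7.64 and 8.29 in the *Ptch1*+/- tumours. MERP tumours gave *Grm4* values of 7.70, 7.04, 7.66, 7.71 and 7.33, and GTML tumours 8.56, 9.36, 9.29 and 10.60. GNPs had 6.47, 6.89 and 7.16, and adult cerebella 12.57, 12.68, 12.74 and 12.54. GNPs held the lowest values together with MERP 2, GTML tumours and the EP tumours stood above the other tumours, and none approached the adult range. The differences from adult cerebellum were -3.70 (SE 0.43) in CRISPR-Ptch1 tumours, -4.69 (SE 0.40) in *Ptch1*+/- tumours, -5.14 (SE 0.38) in MERP tumours, -3.18 (SE 0.40) in GTML tumours and -5.79 (SE 0.43) in GNPs, adjusted p at most 6.23e-07. Relative to GNPs *Grm4* rose by 2.10 (SE 0.46) in CRISPR-Ptch1 tumours, 1.11 (SE 0.43) in *Ptch1*+/- tumours and 2.61 (SE 0.43) in GTML tumours, adjusted p at most 0.0482, and the CRISPR-Ptch1 value was 1.40 without EP 2. GTML exceeded MERP tumours by 1.96 (SE 0.38), adjusted p = 0.000289.

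*Grm2* was at 6.64 and 6.70 in the EP tumours, 6.29 in the TF tumour and 6.43, 6.58, 6.61 and 6.67 in the *Ptch1*+/- tumours. Its values were 6.38, 6.47, 6.32, 6.64 and 6.04 in MERP and 6.85, 6.44, 6.67 and 6.49 in GTML tumours. GNPs stood at 6.79, 6.66 and 6.85, and adult cerebella at 7.60, 7.36, 7.35 and 7.65. *Grm2*, a receptor of Golgi cells in the granular layer, thus varied little below the adult range. It differed from adult cerebellum by -0.95 (SE 0.14) in CRISPR-Ptch1 tumours, -0.92 (SE 0.13) in *Ptch1*+/- tumours, -1.12 (SE 0.12) in MERP tumours, -0.88 (SE 0.13) in GTML tumours and -0.73 (SE 0.14) in GNPs, adjusted p at most 0.000126, and from GNPs by -0.39 (SE 0.13) in MERP tumours, adjusted p = 0.0414. *Grm5*, which couples to calcium release, had its highest group mean in the CRISPR-Ptch1 tumours (7.76 to 7.98), which the upper GTML values overlapped, and its lowest value in MERP 4 (4.36). CRISPR-Ptch1 tumours exceeded MERP tumours by 2.49 (SE 0.56), adjusted p = 0.00644, and *Ptch1*+/- tumours by 1.56 (SE 0.59), adjusted p = 0.0438. *Grm7*, another presynaptic receptor, differed from adult cerebellum by -2.85 (SE 0.39) in CRISPR-Ptch1 tumours, -3.03 (SE 0.36) in *Ptch1*+/- tumours, -3.14 (SE 0.35) in MERP tumours, -2.54 (SE 0.36) in GTML tumours and -1.82 (SE 0.39) in GNPs, adjusted p at most 0.000482. *Grm8* was near background in every group but adult cerebellum (5.69 to 5.83). Its difference was -0.30 (SE 0.09), adjusted p = 0.0266, for CRISPR-Ptch1 against MERP, -0.73 (SE 0.09), adjusted p = 1.61e-06, against GTML, and 0.44 (SE 0.08), adjusted p = 0.000133, for GTML against MERP tumours, all between means near background. For *Grm2* and its class, leaving out 1 array took calls below the threshold, as *Grm2* in MERP against GNPs did without MERP 1, MERP 3, MERP 5, GNPs 1, GNPs 2 or GNPs 3 (log2 -0.44 to -0.31, adjusted p 0.0555 to 0.157) and *Grm3* in CRISPR-Ptch1 against MERP did without EP 2 (log2 1.64, adjusted p = 0.0672). Further, *Grm3* in GTML against MERP did without GTML 1 or GTML 4 (log2 1.15 to 1.17, adjusted p 0.0514 to 0.0577) and *Grm4* in *Ptch1*+/- against GNPs did without any of 19 of the 23 arrays, all but EP 2, the TF tumour, GTML 1 and GTML 4 (log2 0.92 to 1.27, adjusted p 0.0512 to 0.165). Likewise, *Grm4* in CRISPR-Ptch1 against MERP did without EP 1, EP 2 or MERP 2 (log2 0.75 to 1.53, adjusted p 0.0535 to 0.244) and *Grm5* in MERP against GNPs did without MERP 2, MERP 3, MERP 4, GNPs 1, GNPs 2 or GNPs 3 (log2 -1.83 to -1.51, adjusted p 0.0633 to 0.102). Also, *Grm5* in CRISPR-Ptch1 against *Ptch1*+/- did without any of 12 of the 23 arrays (EP 1, EP 2, the TF tumour, *Ptch1*+/- 1, *Ptch1*+/- 3, GNPs 1, GNPs 2, GNPs 3, adult 1, adult 2, adult 3 or adult 4) (log2 1.14 to 1.60, adjusted p 0.0507 to 0.15) and *Grm5* in GTML against MERP did without GTML 1, GTML 4, MERP 3 or MERP 4 (log2 1.28 to 1.39, adjusted p 0.0501 to 0.0741). In addition, *Grm7* in *Ptch1*+/- against GNPs did without *Ptch1*+/- 4 or GNPs 1 (log2 -1.10 to -1.09, adjusted p 0.053 to 0.0663) and *Grm7* in MERP against GNPs did without GNPs 1 or GNPs 2 (log2 -1.32 to -1.21, adjusted p 0.0527 to 0.0728). In addition, *Grm8* in CRISPR-Ptch1 against MERP did without EP 1, EP 2 or MERP 5 (log2 -0.28 to -0.26, adjusted p 0.0538 to 0.131).

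GABA-A subunits gave the widest differences in the family. *Gabra6*, the alpha subunit found in cerebellar granule neurons, and *Gabrb2*, a beta subunit of the same receptor, are neighbours on chromosome 11 with no protein-coding gene between them, and they moved apart in GTML tumours. The 250 bases before each start site are shown because both genes lie in 1 cluster (RefSeq, GRCm38.p6 chr11:42321073-42321322, minus strand for *Gabra6* and GRCm38.p6 chr11:42420190-42420439, plus strand for the first of 3 *Gabrb2* start sites). Capitals mark TTGGC or its complement GCCAA, the core of the site bound by nuclear factor I, a factor of granule neuron maturation.
Gabra6: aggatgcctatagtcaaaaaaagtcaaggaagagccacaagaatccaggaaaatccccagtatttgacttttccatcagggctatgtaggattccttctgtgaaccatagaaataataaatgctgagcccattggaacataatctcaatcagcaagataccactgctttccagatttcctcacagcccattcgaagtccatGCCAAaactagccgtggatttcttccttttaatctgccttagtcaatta
Gabrb2: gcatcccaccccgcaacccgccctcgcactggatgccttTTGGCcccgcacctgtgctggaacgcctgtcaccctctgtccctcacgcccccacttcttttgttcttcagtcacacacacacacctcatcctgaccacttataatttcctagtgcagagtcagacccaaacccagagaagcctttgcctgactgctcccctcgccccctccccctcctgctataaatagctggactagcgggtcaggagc
The core was searched on both strands and lies at positions -49 to -45 from the *Gabra6* start and -211 to -207 from the *Gabrb2* start shown, and the other 2 *Gabrb2* start sites lack it in this window. It is present in 41.5% of 32851 promoters of this length and in 12 of the 32 promoters found for 25 members, and the palindrome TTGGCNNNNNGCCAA in none of the 32. A match of these letters is a description and not a binding site.

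*Gabra6* read 9.77 and 11.67 in the EP tumours, 7.84 in the TF tumour and 5.56, 5.57, 5.19 and 4.52 in the *Ptch1*+/- tumours. MERP tumours gave *Gabra6* values of 4.39, 6.43, 6.07, 4.43 and 3.86, and GTML tumours 4.39, 4.42, 3.86 and 3.75. GNPs had 4.13, 3.93 and 3.93, and adult cerebella 13.85, 13.86, 13.82 and 13.80. The adult cerebella lay between 13.80 and 13.86, both EP tumours and the TF tumour lay between them and all remaining arrays, MERP and GTML tumours overlapped the GNPs, and *Ptch1*+/- tumours lay just above the GNPs. The differences from adult cerebellum were -4.07 (SE 0.62) in CRISPR-Ptch1 tumours, -8.62 (SE 0.58) in *Ptch1*+/- tumours, -8.80 (SE 0.55) in MERP tumours, -9.73 (SE 0.58) in GTML tumours and -9.83 (SE 0.62) in GNPs, adjusted p at most 1.25e-05. GTML and GNP means were near background, which makes these 2 values lower limits. CRISPR-Ptch1 tumours exceeded GNPs by at least 5.77 (SE 0.67), adjusted p = 2.31e-06, and *Ptch1*+/- tumours by 4.55 (SE 0.62), adjusted p = 1.61e-05. They exceeded MERP tumours by 4.73 (SE 0.60), adjusted p = 6.20e-05, and GTML tumours by at least 5.66 (SE 0.62), adjusted p = 4.06e-07. These sizes and limits are those of the brightest probe set. The other probe set of *Gabra6* gave smaller excesses of 3.12, 2.99, 3.07 and 3.11 in the same order. Against adult cerebellum it had -5.56 in CRISPR-Ptch1, -8.55 in *Ptch1*+/-, -8.63 in MERP and -8.66 in GTML tumours and -8.68 in GNPs. *Ptch1*+/- tumours over GNPs gave 0.13 by it, beside 1.22 by the brightest.

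*Gabrb2* measured 8.57 and 9.83 in the EP tumours, 7.59 in the TF tumour and 6.68, 7.54, 6.15 and 6.82 in the *Ptch1*+/- tumours. Its values were 5.59, 4.87, 4.74, 4.43 and 5.17 in MERP and 9.26, 9.27, 9.43 and 10.02 in GTML tumours. GNPs stood at 6.42, 6.58 and 6.60, and adult cerebella at 12.63, 12.51, 12.50 and 12.65. GTML tumours stood near the EP tumours for *Gabrb2*, while MERP tumours lay below the GNPs. Against adult cerebellum it had -3.91 (SE 0.37) in CRISPR-Ptch1 tumours, -5.78 (SE 0.34) in *Ptch1*+/- tumours, -7.62 (SE 0.33) in MERP tumours, -3.08 (SE 0.34) in GTML tumours and -6.04 (SE 0.37) in GNPs, adjusted p at most 9.78e-08. Against GNPs the differences were 2.13 (SE 0.40) in CRISPR-Ptch1 tumours, -1.57 (SE 0.35) in MERP tumours and 2.96 (SE 0.37) in GTML tumours, adjusted p at most 0.00267. GTML exceeded MERP tumours by 4.54 (SE 0.33), adjusted p = 4.70e-10. In the same GTML arrays *Gabra6* stayed at 3.75 to 4.42.

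*Gabrd*, which pairs with *Gabra6* in receptors outside the synapse that carry tonic inhibition, followed it in the EP tumours. *Gabrd* stood at 6.37 and 8.16 in the EP tumours, 5.08 in the TF tumour and 4.29, 5.09, 4.76 and 5.26 in the *Ptch1*+/- tumours. MERP tumours gave *Gabrd* values of 4.61, 4.11, 4.48, 4.39 and 4.33, and GTML tumours 5.35, 4.46, 4.36 and 4.59. GNPs had 4.30, 4.57 and 4.26, and adult cerebella 10.79, 10.90, 10.69 and 10.92. EP 2 stood out among the tumours and EP 1 came second, while the TF tumour lay within the *Ptch1*+/- range. The MERP tumours and GNPs lay at or below background on average. *Gabrd* differed from adult cerebellum by -4.29 (SE 0.42) in CRISPR-Ptch1 tumours, -5.97 (SE 0.39) in *Ptch1*+/- tumours, -6.44 (SE 0.37) in MERP tumours, -6.13 (SE 0.39) in GTML tumours and -6.45 (SE 0.42) in GNPs, adjusted p at most 2.89e-08, with the MERP and GNP values as lower limits. CRISPR-Ptch1 exceeded *Ptch1*+/- tumours by 1.69 (SE 0.42), adjusted p = 0.00345, and MERP tumours by at least 2.15 (SE 0.40), adjusted p = 0.00188. Without EP 2 these were 0.87 and 1.34. The other probe set of *Gabrd*, with a mean of 4.51 over all arrays, showed none of these differences. Against adult cerebellum it ranged from -0.15 in GNPs to -0.05 in GTML tumours. For CRISPR-Ptch1 tumours it gave 0.01 against *Ptch1*+/- tumours, and the opposite sign against MERP (-0.01) and GTML tumours (-0.04). The *Gabrd* differences therefore rest on the brightest probe set alone.

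**Figure D4:**
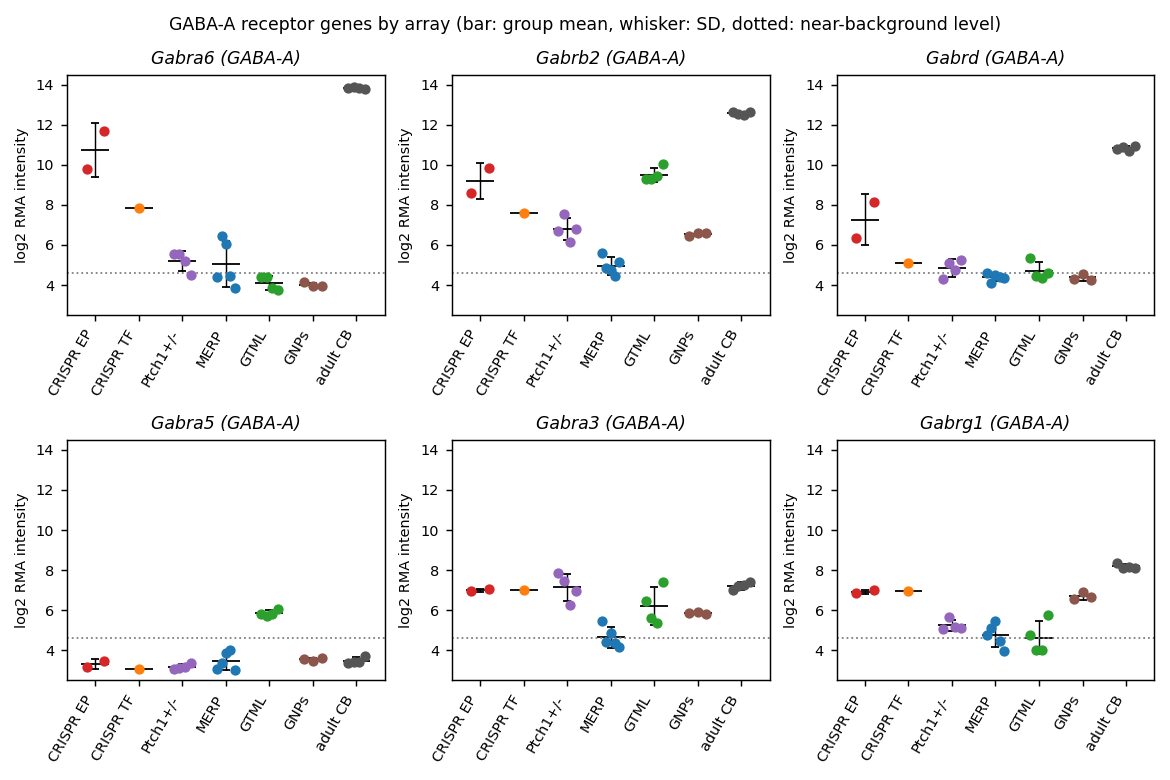
Log2 RMA intensity of 6 GABA-A receptor genes in each array (points), by group from CRISPR-Ptch1 EP to adult cerebellum (adult CB), with the group mean (bar), SD (whisker, groups with over 1 array) and the near-background level of 4.61 (dotted). Gabra6 and Gabrd stand out in the EP tumours and adult cerebella, Gabrb2 also in GTML tumours (9.26 to 10.02), and Gabra5 in GTML tumours alone (5.71 to 6.05).

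*Gabra5*, an alpha subunit of extrasynaptic receptors, was measured by 1 probe set. *Gabra5* gave 3.14 and 3.49 in the EP tumours, 3.07 in the TF tumour and 3.04, 3.12, 3.18 and 3.35 in the *Ptch1*+/- tumours. Its values were 3.08, 3.36, 3.86, 4.03 and 3.01 in MERP and 5.83, 5.71, 5.83 and 6.05 in GTML tumours. GNPs stood at 3.59, 3.47 and 3.61, and adult cerebella at 3.37, 3.44, 3.40 and 3.73. All GTML tumours lay above all other arrays, whose group means were near background, so the differences are lower limits. They were 2.37 (SE 0.18) in GTML tumours, adjusted p = 2.29e-10 against adult cerebellum, 2.30 (SE 0.19) in GTML tumours, adjusted p = 5.31e-09 against GNPs and 2.39 (SE 0.17) in GTML tumours, adjusted p = 3.72e-10 against MERP tumours, and CRISPR-Ptch1 against GTML tumours gave -2.62 (SE 0.19), adjusted p = 1.13e-09. *Gabrg3*, its neighbour on chromosome 7, spanned 4.57 to 5.31 over the 23 arrays, with 4.99 to 5.31 in GTML tumours and 4.59 to 4.83 in adult cerebella. It was called higher in GTML tumours than in adult cerebellum (0.48) and GNPs (0.37), and lower in CRISPR-Ptch1 than in GTML tumours (-0.47). The call against GNPs was lost without GTML 1, GTML 3, GNPs 1 or GNPs 2 (log2 0.27 to 0.37).

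*Gabra3* registered 6.95 and 7.05 in the EP tumours, 7.01 in the TF tumour and 7.87, 7.46, 6.27 and 6.94 in the *Ptch1*+/- tumours. MERP tumours gave *Gabra3* values of 5.48, 4.41, 4.87, 4.34 and 4.15, and GTML tumours 6.45, 5.60, 5.34 and 7.41. GNPs had 5.88, 5.91 and 5.81, and adult cerebella 6.98, 7.19, 7.24 and 7.42. MERP tumours lay below the GNPs, and the CRISPR-Ptch1 and *Ptch1*+/- tumours spanned values that overlap the adult range of this alpha subunit. *Gabra3* differed from adult cerebellum by -2.56 (SE 0.34) in MERP tumours, -1.01 (SE 0.36) in GTML tumours and -1.34 (SE 0.39) in GNPs, adjusted p at most 0.0229, and from GNPs by 1.27 (SE 0.39) in *Ptch1*+/- tumours and -1.22 (SE 0.38) in MERP tumours, adjusted p at most 0.0251. The values that did not pass were -0.21 (SE 0.39, adjusted p = 0.714) in CRISPR-Ptch1 tumours and -0.07 (SE 0.36, adjusted p = 0.894) in *Ptch1*+/- tumours, against adult cerebellum. A second probe set of *Gabra3* had the opposite sign in GTML tumours against adult cerebellum (0.02) and in MERP tumours against GNPs (0.20).

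*Gabrg1* was at 6.85 and 6.99 in the EP tumours, 6.97 in the TF tumour and 5.06, 5.64, 5.15 and 5.11 in the *Ptch1*+/- tumours. Its values were 4.78, 5.09, 5.46, 4.47 and 3.96 in MERP and 4.77, 4.02, 4.0 and 5.76 in GTML tumours. GNPs stood at 6.58, 6.92 and 6.64, and adult cerebella at 8.37, 8.10, 8.15 and 8.12. *Gabrg1*, a gamma subunit of Bergmann glia, was thus higher in CRISPR-Ptch1 tumours and GNPs than in the other tumours, and highest in adult cerebella. It differed from GNPs by -1.47 (SE 0.33) in *Ptch1*+/- tumours, -1.96 (SE 0.32) in MERP tumours and -2.08 (SE 0.33) in GTML tumours, adjusted p at most 0.00123, and from adult cerebellum by -1.24 (SE 0.33) in CRISPR-Ptch1 tumours, -2.94 (SE 0.31) in *Ptch1*+/- tumours, -3.43 (SE 0.29) in MERP tumours, -3.55 (SE 0.31) in GTML tumours and -1.47 (SE 0.33) in GNPs, adjusted p at most 0.00348. CRISPR-Ptch1 exceeded *Ptch1*+/- tumours by 1.70 (SE 0.33), adjusted p = 0.000416, MERP tumours by 2.19 (SE 0.32), adjusted p = 0.000191, and GTML tumours by 2.30 (SE 0.33), adjusted p = 1.27e-05. The astrocyte and Bergmann glia list given above had 7, 4 and 9 of its 11 genes higher in the same 3 comparisons. Of all genes 28.5%, 8.20% and 22.7% were higher there, and the part of the list was not tested.

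*Gabra4* read 8.13 and 8.66 in the EP tumours, 7.58 in the TF tumour and 8.58, 8.19, 7.68 and 7.69 in the *Ptch1*+/- tumours. MERP tumours gave *Gabra4* values of 8.29, 7.97, 7.83, 8.0 and 6.26, and GTML tumours 8.26, 8.70, 8.33 and 10.03. GNPs had 8.97, 8.98 and 8.79, and adult cerebella 9.18, 9.39, 9.42 and 9.48. GTML tumours spread from below to above the adult range, GNPs lay just below it, and MERP 5 was the lowest array. *Gabra4*, an alpha subunit, had log2 fold changes against adult cerebellum of -1.24 (SE 0.41) in CRISPR-Ptch1 tumours, -1.33 (SE 0.38) in *Ptch1*+/- tumours and -1.70 (SE 0.36) in MERP tumours, adjusted p at most 0.0163. The remaining values were -0.53 (SE 0.38, adjusted p = 0.253) in GTML tumours and -0.45 (SE 0.41, adjusted p = 0.397) in GNPs. The other probe set had -1.36 in CRISPR-Ptch1, -1.0 in *Ptch1*+/-, -1.89 in MERP and -0.44 in GTML tumours, and -1.19 in GNPs. GTML tumours against GNPs gave 0.75 by that probe set and -0.08 by the brightest one of *Gabra4*. *Gabra2* and *Gabrb1*, its cluster neighbours on chromosome 5 together with *Gabrg1*, were lower than adult cerebellum in all 5 comparisons, *Gabra2* with -2.58 (SE 0.41) in CRISPR-Ptch1 tumours, -3.20 (SE 0.38) in *Ptch1*+/- tumours, -3.64 (SE 0.36) in MERP tumours, -2.60 (SE 0.38) in GTML tumours and -2.75 (SE 0.41) in GNPs, adjusted p at most 1.99e-05, and *Gabrb1* with -1.97 (SE 0.54) in CRISPR-Ptch1 tumours, -3.68 (SE 0.50) in *Ptch1*+/- tumours, -3.25 (SE 0.48) in MERP tumours, -2.60 (SE 0.50) in GTML tumours and -2.26 (SE 0.54) in GNPs, adjusted p at most 0.00453. GTML tumours had 1.04 (SE 0.36), adjusted p = 0.0262, for *Gabra2* over MERP tumours. With arrays left out singly, some calls fell short of the threshold, as *Gabra2* in GTML against MERP did without GTML 1, GTML 4 or MERP 3 (log2 0.83 to 0.92, adjusted p 0.0714 to 0.104) and *Gabra3* in GTML against adult cerebellum did without GTML 2, GTML 3 or adult 4 (log2 -0.94 to -0.72, adjusted p 0.0573 to 0.105). Further, *Gabra3* in MERP against GNPs did without MERP 2, MERP 4, MERP 5, GNPs 1, GNPs 2 or GNPs 3 (log2 -1.25 to -1.10, adjusted p 0.051 to 0.0801) and *Gabra4* in CRISPR-Ptch1 against adult cerebellum did without the TF tumour (log2 -0.97, adjusted p = 0.098). Likewise, *Gabra4* in MERP against GNPs did without MERP 5, GNPs 1, GNPs 2 or GNPs 3 (log2 -1.31 to -0.89, adjusted p 0.0591 to 0.0924) and *Gabra4* in GTML against MERP did without GTML 4 (log2 0.76, adjusted p = 0.0772). Also, *Gabrb1* in CRISPR-Ptch1 against adult cerebellum did without the TF tumour (log2 -1.40, adjusted p = 0.052) and *Gabrb1* in *Ptch1*+/- against GNPs did without any of 10 of the 23 arrays (*Ptch1*+/- 1, *Ptch1*+/- 3, *Ptch1*+/- 4, GNPs 1, GNPs 2, GNPs 3, adult 1, adult 2, adult 3 or adult 4) (log2 -1.61 to -1.25, adjusted p 0.05 to 0.132). In addition, *Gabrb1* in CRISPR-Ptch1 against *Ptch1*+/- did without EP 1 or EP 2 (log2 1.26 to 1.59, adjusted p 0.0625 to 0.117).

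*Gabbr1*, the ligand-binding subunit of the GABA-B receptor, was lower than adult cerebellum in every comparison. *Gabbr1* measured 10.20 and 10.92 in the EP tumours, 9.27 in the TF tumour and 11.08, 11.10, 10.74 and 11.15 in the *Ptch1*+/- tumours. Its values were 9.94, 10.25, 10.27, 9.93 and 9.95 in MERP and 10.22, 9.22, 9.65 and 9.82 in GTML tumours. GNPs stood at 10.50, 10.14 and 10.18, and adult cerebella at 12.26, 12.20, 12.22 and 12.31. The adult range lay above all other arrays, the *Ptch1*+/- tumours lay above the GNPs, and the TF tumour and GTML 2 were the lowest. *Gabbr1* differed from adult cerebellum by -2.11 (SE 0.26) in CRISPR-Ptch1 tumours, -1.23 (SE 0.24) in *Ptch1*+/- tumours, -2.18 (SE 0.23) in MERP tumours, -2.52 (SE 0.24) in GTML tumours and -1.97 (SE 0.26) in GNPs, adjusted p at most 0.000147. *Ptch1*+/- tumours exceeded GNPs by 0.74 (SE 0.26), adjusted p = 0.0258, and CRISPR-Ptch1 tumours differed from *Ptch1*+/- tumours by -0.89 (SE 0.26), adjusted p = 0.00969. Of its 3 other probe sets 1 had a difference of 0.08 in *Ptch1*+/- tumours and of 0.08 in GNPs against adult cerebellum, and the lowest had -1.65 and -1.84. For *Gabbr1*, leaving out 1 array took calls below the threshold, as *Gabbr1* in *Ptch1*+/- against GNPs did without *Ptch1*+/- 2, *Ptch1*+/- 4, GNPs 2 or GNPs 3 (log2 0.68 to 0.72, adjusted p 0.0536 to 0.0929) and *Gabbr1* in CRISPR-Ptch1 against *Ptch1*+/- did without the TF tumour (log2 -0.46, adjusted p = 0.114).

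Glycine receptors, the inhibitory channels of brainstem, spinal cord and Golgi cell synapses, showed *Glra1*, the adult alpha subunit, in GTML tumours. *Glra1* stood at 3.60 and 3.61 in the EP tumours, 3.42 in the TF tumour and 3.49, 3.89, 3.93 and 3.44 in the *Ptch1*+/- tumours. MERP tumours gave *Glra1* values of 3.66, 3.43, 3.36, 3.60 and 3.60, and GTML tumours 5.73, 5.71, 4.55 and 6.48. GNPs had 3.72, 3.63 and 3.36, and adult cerebella 4.38, 4.45, 4.29 and 4.52. Each GTML tumour lay above every other array, and the tumours of the other models and the GNPs lay near background and below the adult range, itself near background. Since 1 or both means were near background, the differences from adult cerebellum are lower limits at best, of -0.87 (SE 0.26) in CRISPR-Ptch1 tumours, -0.72 (SE 0.24) in *Ptch1*+/- tumours, -0.88 (SE 0.23) in MERP tumours, 1.21 (SE 0.24) in GTML tumours and -0.84 (SE 0.26) in GNPs, adjusted p at most 0.0156. GTML tumours exceeded GNPs by at least 2.05 (SE 0.26), adjusted p = 2.19e-06, and MERP tumours by at least 2.09 (SE 0.23), adjusted p = 2.96e-07, and CRISPR-Ptch1 against GTML tumours gave -2.07 (SE 0.26), adjusted p = 2.67e-06.

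*Glra2*, the alpha subunit of the developing nervous system, was present in GNPs and adult cerebella. *Glra2* gave 4.97 and 6.93 in the EP tumours, 3.76 in the TF tumour and 6.80, 5.52, 3.97 and 5.37 in the *Ptch1*+/- tumours. Its values were 3.82, 4.01, 3.85, 3.98 and 4.11 in MERP and 4.0, 3.68, 3.83 and 4.60 in GTML tumours. GNPs stood at 6.11, 7.25 and 6.60, and adult cerebella at 5.90, 6.56, 6.05 and 6.32. MERP and GTML tumours lay near background and below all normal arrays, and the EP, TF and *Ptch1*+/- tumours spread between 3.76 and 6.93. Against GNPs the differences were at least -2.70 (SE 0.53) in MERP tumours and -2.63 (SE 0.55) in GTML tumours, adjusted p at most 0.000705, and against adult cerebellum -2.25 (SE 0.48) in MERP tumours and -2.18 (SE 0.51) in GTML tumours, adjusted p at most 0.000957. *Glrb* registered 9.38 and 9.63 in the EP tumours, 9.33 in the TF tumour and 9.95, 10.09, 9.69 and 9.73 in the *Ptch1*+/- tumours. MERP tumours gave *Glrb* values of 9.41, 9.63, 9.39, 9.34 and 9.37, and GTML tumours 8.34, 7.34, 8.16 and 8.94. GNPs had 9.02, 9.10 and 9.11, and adult cerebella 10.88, 10.79, 10.65 and 10.77. By the brightest probe set of *Glrb*, *Ptch1*+/- tumours lay above all other tumours and GNPs. *Glrb*, the beta subunit that anchors the receptor to gephyrin, was lowest in GTML tumours and highest in adult cerebella. It differed from adult cerebellum by -1.33 (SE 0.22) in CRISPR-Ptch1 tumours, -0.91 (SE 0.20) in *Ptch1*+/- tumours, -1.34 (SE 0.19) in MERP tumours, -2.58 (SE 0.20) in GTML tumours and -1.70 (SE 0.22) in GNPs, adjusted p at most 0.000647, and from GNPs by 0.79 (SE 0.22) in *Ptch1*+/- tumours and -0.88 (SE 0.22) in GTML tumours, adjusted p at most 0.00667. CRISPR-Ptch1 exceeded GTML tumours by 1.25 (SE 0.22), adjusted p = 0.000126, and GTML stood at -1.23 (SE 0.19), adjusted p = 2.64e-05, relative to MERP tumours. The other probe set of *Glrb* did not place *Ptch1*+/- tumours above the rest. Against adult cerebellum it had -1.88 in *Ptch1*+/-, -1.75 in CRISPR-Ptch1, -1.80 in MERP and -3.62 in GTML tumours and -2.20 in GNPs. Against GNPs it had 0.32 in *Ptch1*+/-, 0.45 in CRISPR-Ptch1 and 0.40 in MERP tumours. *Glra3* was near background in all 7 groups and called in no comparison by its brightest probe set. Its other probe set ran from 3.43 to 6.24 in GTML tumours and averaged near background in all 7 groups. The differences in GTML tumours were 0.89 (adjusted p = 0.0442 by limma) against adult cerebellum and 1.19 (adjusted p = 0.018) against GNPs. That probe set also passed in GTML against MERP tumours, and in CRISPR-Ptch1 against GTML tumours with -1.25 (adjusted p = 0.0149 by limma). For *Glra1*, leaving out 1 array took calls below the threshold, as *Glra1* in *Ptch1*+/- against adult cerebellum did without *Ptch1*+/- 4 (log2 -0.64, adjusted p = 0.0501) and *Glra1* in GNPs against adult cerebellum did without GNPs 3 (log2 -0.74, adjusted p = 0.0534).

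Genes that work with these receptors were lower than adult cerebellum more often than higher. Of 33 listed accessory and scaffold genes 30 were measured, of which 6 were higher and 16 lower than adult cerebellum in CRISPR-Ptch1, 5 and 17 in *Ptch1*+/-, 5 and 17 in MERP and 5 and 22 in GTML tumours and 3 and 14 in GNPs. As shares of the 30, the higher calls came to 20% in CRISPR-Ptch1 tumours, 16.7% in each other tumour model and 10% in GNPs, below the 22.4% to 30.8% of all genes. The lower calls came to 53.3%, 56.7%, 56.7%, 73.3% and 46.7% in the same order of groups, where all genes had 21.1%, 30.8%, 24.9%, 27.9% and 21.0%. Their median difference was -0.48, -0.45, -0.83, -1.23 and -0.74 in the same order. In CRISPR-Ptch1 tumours *Dlg2*, a scaffold of glutamate synapses, had -2.80 (SE 0.61), adjusted p = 0.000582, *Shank3*, another scaffold, -2.54 (SE 0.24), adjusted p = 1.22e-08, and *Homer3*, which binds metabotropic receptors, -1.94 (SE 0.15), adjusted p = 1.14e-09. *Homer2* and *Grip1*, which also bind glutamate receptors, had 2.09 (SE 0.33), adjusted p = 1.50e-05, and 1.99 (SE 0.14), adjusted p = 1.71e-10. GTML tumours had 5 higher (16.7%) and 11 lower (36.7%) accessory genes than MERP tumours, where 15.8% and 23.4% of all genes were. Among the 11, *Cacng5*, *Cacng8* and *Cacng2*, auxiliary subunits of AMPA receptors, had -3.43 (SE 0.35), adjusted p = 9.71e-08, -2.60 (SE 0.25), adjusted p = 3.25e-08, and -1.85 (SE 0.17), adjusted p = 2.59e-08 (*Cacng8*, near background in GTML tumours, as a lower limit), in the comparison where 3 of the 4 AMPA subunits were also lower.

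Of 20 genes of transmitter synthesis and transport 18 were measured, and 3 were higher and 12 lower than adult cerebellum in CRISPR-Ptch1, 3 and 14 in *Ptch1*+/-, 3 and 15 in MERP and 2 and 15 in GTML tumours and 3 and 12 in GNPs. The lower calls were 66.7% to 83.3% of the 18 and the higher ones 11.1% to 16.7%, beside 21.0% to 30.8% and 22.4% to 30.8% of all genes. *Slc17a6*, the vesicular glutamate transporter of young granule neurons, had 2.36 (SE 0.35), adjusted p = 7.56e-06, in CRISPR-Ptch1 tumours against adult cerebellum, and *Slc17a7*, that of mature ones, -1.79 (SE 0.20), adjusted p = 1.82e-07. *Slc12a5*, the chloride exporter that makes GABA inhibitory, had -3.87 (SE 0.63), adjusted p = 2.77e-05, against adult cerebellum and 2.93 (SE 0.61), adjusted p = 0.00345, against MERP tumours, and *Gad1*, an enzyme of GABA synthesis, -3.72 (SE 0.94), adjusted p = 0.00222, and 5.02 (SE 0.90), adjusted p = 0.00121. In GTML over MERP tumours *Gad1* had 3.45 (SE 0.82), adjusted p = 0.00194, and *Slc12a5* 3.34 (SE 0.56), adjusted p = 5.40e-05. *Gad1* was near background in MERP tumours, so the differences from them are lower limits.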

How the data were processed

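RNA of 16 mouse cerebellar tumours, 3 GNP preparations and 4 adult cerebella was hybridised to Affymetrix mouse arrays. The deposited values are log2 intensities that the authors obtained by RMA in Affymetrix Expression Console 1.3.1, that is background correction, quantile normalisation and a summary of the probes of each probe set. Which arrays were normalised together is not given in the sources used here, nor is a scan date or an array batch. RMA compresses differences of dim probe sets, and the number of arrays limits the precision.

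Of 45101 probe sets 34958 had 1 gene symbol in the platform annotation, 932 had several and 9211 had none. Symbols were updated through Entrez identifiers where these matched (34754 probe sets), which left 18194 genes, 9182 of them with 1 probe set. Of the 36 members, 26 had several probe sets, 80 in all, and the brightest on average over the 23 arrays was used. The members and gene lists were chosen with earlier results of these data known. Groups were taken from the sample titles. No 2 arrays were identical.

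Tests between groups used limma 3.58.1 (R 4.3.3) with its linear model and moderated variance (two-sided, 1 fit of 6 groups, Benjamini-Hochberg adjustment over all genes). The methods of the study give no test between groups. The fit was tested on simulated data, where changed genes came back with the right sign. In each comparison and receptor class, the called members with the highest and lowest log2 fold change were named. Single arrays are given for members so named against adult cerebellum or GNPs in at least 3 comparisons or called in opposite directions against the same reference. Gabra5 and Gabrd, and other values of members beyond this rule, were added after their values were seen. Genes of the accessory and transport lists were likewise picked as examples afterwards.

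Alternatives were 3 scalings, 2 choices of probe set, a filter on dim genes, a trended robust variance, array weights, fits of the compared groups alone, EP or TF tumours alone, the replicate number as a block, and leaving out each array in turn.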

Additional observations from a re-analysis of the deposited data

Results flagged for a closer look

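In 11 of 144 groups of 4 or 5 arrays, the highest or lowest array stood apart by Dixon's criterion, where chance would give about 7.2 (1 in 20). GTML 2 was low for *Gria2* (7.98, the other GTML tumours 9.63 to 9.79) and for *Gabrb1* (5.86, others 8.66 to 9.02). MERP 5 was high for *Grin2c* (5.63, others 5.09 to 5.17) and low for *Gabra4* (6.26, others 7.83 to 8.29), and MERP 2 was high for *Glrb* (9.63, others 9.34 to 9.41). Among the *Ptch1*+/- tumours, replicate 1 was low for *Grm3* (5.03, others 5.88 to 5.95), replicate 4 for *Grm7* (6.06, others 6.51 to 6.55) and replicate 3 for *Gabbr1* (10.74, others 11.08 to 11.15), and replicate 2 was high for *Gabrg1* (5.64, others 5.06 to 5.15). Adult cerebellum 1 was high for *Gria3* (10.92, others 10.63 to 10.66) and for *Gabrg1* (8.37, others 8.10 to 8.15).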

How the results depend on the processing

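The 36 members had 234 called differences over the 13 comparisons, of which 198 passed whichever array was left out and 36 did not at least once. With arrays centred on the named genes, 1 value changed sign (*Grik4* in GTML tumours against GNPs, 0.0152), and the counts became 23 for *Ptch1*+/- against GNPs, 12 without centring, and 22 for CRISPR-*Ptch1* against *Ptch1*+/-, 14 without. Array weights, whose estimation stopped before reaching its tolerance, gave 23 called members against 7 for CRISPR-*Ptch1* against GNPs, 20 against 11 for MERP against GNPs, 22 against 14 for CRISPR-*Ptch1* against *Ptch1*+/- and 21 against 11 for CRISPR-*Ptch1* against MERP. Fits of the 2 groups alone gave 9 for CRISPR-*Ptch1* against *Ptch1*+/- and 7 against MERP. The TF tumour alone gave 4 against GNPs, 6 against *Ptch1*+/- and 4 against MERP, and 29 of the 72 CRISPR-*Ptch1* calls did not pass with it alone. That fit has 1 array in its arm, which is assumed to vary like the other groups. All 29 kept their sign, with a median size of 0.70 with the TF tumour alone and 1.56 in the pooled fit. The other counts stayed within 1.5 times the main ones. Leaving out 1 array gave 5 to 11 members for CRISPR-*Ptch1* against GNPs (11 without GTML 2), 5 to 15 for MERP against GNPs (5 to 6 without a GNP array), 8 to 14 for *Ptch1*+/- against GNPs, 10 to 16 for CRISPR-*Ptch1* against *Ptch1*+/- and 8 to 16 for CRISPR-*Ptch1* against MERP. The cause of these shifts was not tested. The replicate numbers do not pair the samples (6 of 46 same-numbered pairs correlated above 0.1, r between -0.28 and 0.23, and 2 of 21 arrays were nearest to their own number). With the replicate block the counts lay between 8 (CRISPR-*Ptch1* against GNPs) and 29 (GTML against adult cerebellum), and 12 of the 234 calls did not pass.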
